A study of Mus musculus with 24 samples.

Results

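The genes described here encode the 5 subunits of the transcription factor NF-κB (Nfkb1, Nfkb2, Rel, Rela and Relb) and 5 of its inhibitors (Nfkbia, Nfkbib, Nfkbie, Nfkbiz and Tnfaip3). Members were chosen by name, as the probes of the scanner files whose gene name was one of these symbols, which gave 14 of the 41174 probes and 10 of the 21597 gene symbols on the array. The probe of Nfkbiz lies at chr16:55736929-55736988 and that of Nfkbie at chr17:45026632-45026691, that of Tnfaip3 at chr10:18690604-18690663 and that of Relb at chr7:18764895-18764954 (mm8), and exon annotation of this build was not used here. Expression was measured in cells of C57BL/6 mice on 12 Agilent mouse arrays with 2 colours, where the Cy5 and the Cy3 channel of an array held the 2 biological replicates of the same condition. The cells were macrophages elicited into the peritoneum by thioglycollate (EPM), macrophages grown from bone marrow (BMDM) and resting B cells of the spleen, the last obtained by removing cells that carried CD43 or CD11b with magnetic beads. Each cell type was treated with Kdo2 lipid A (KLA), an agonist of Toll-like receptor 4 (TLR4), for 1 h or 12 h. The control of the 1 h sample was untreated in EPM and B cells and received DMSO for 1 h in BMDM, whereas the control of the 12 h sample received DMSO for 12 h in each cell type. The question addressed was how far TLR4 signaling changed the mRNA of the factor and of the proteins that restrain it, and whether this differed between 2 kinds of macrophage and B cells.

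NF-κB is a dimer of Rel family proteins. In resting cells, IκB proteins bind the dimers and hold most of them in the cytoplasm. TLR4 signaling activates the IκB kinase (IKK) complex, which marks IκB for degradation and frees the dimers to enter the nucleus. The freed dimers also activate genes that encode inhibitors, so that the pathway carries its own negative feedback, and in macrophages this loop is known to shape the timing of inflammatory gene expression.

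NF-κB recognises a short DNA motif, the κB consensus, and the promoters of members that hold a match are shown first. Whether a match had a part in the changes after KLA was not tested. RefSeq windows (GRCm38.p6) of 250 bases before to 50 bases after a start site were at hand for 7 members in 10 windows, some members having several starts. Nfkb1, Relb and Nfkbiz had no window. A search on both strands for the κB consensus of 10 bases matched 7 of these 10 windows and 5 of the 7 members, against 4.51% of 32851 windows and 5.14% of 27025 genes. The Nfkb2 windows at chr19:46305445-46305744 and chr19:46305680-46305979, which are not shown, overlap and share a match. The count of windows therefore holds this match in both. Matches are in capitals, and where matches overlap the capitals run through both.
Nfkbia, chr12:55492598-55492897, minus strand: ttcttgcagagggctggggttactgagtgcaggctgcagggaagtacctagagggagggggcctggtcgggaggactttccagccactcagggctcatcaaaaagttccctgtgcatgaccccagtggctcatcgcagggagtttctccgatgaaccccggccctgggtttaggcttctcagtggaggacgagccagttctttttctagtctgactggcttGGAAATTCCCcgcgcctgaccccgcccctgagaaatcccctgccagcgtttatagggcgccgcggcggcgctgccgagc
Nfkbie, chr17:45555450-45555749, plus strand: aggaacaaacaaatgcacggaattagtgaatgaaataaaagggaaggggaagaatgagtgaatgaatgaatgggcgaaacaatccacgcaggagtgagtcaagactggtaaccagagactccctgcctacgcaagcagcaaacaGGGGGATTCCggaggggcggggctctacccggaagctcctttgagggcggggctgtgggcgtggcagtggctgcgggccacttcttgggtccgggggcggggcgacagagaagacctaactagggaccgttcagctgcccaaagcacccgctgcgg
Tnfaip3, chr10:19015361-19015660, minus strand: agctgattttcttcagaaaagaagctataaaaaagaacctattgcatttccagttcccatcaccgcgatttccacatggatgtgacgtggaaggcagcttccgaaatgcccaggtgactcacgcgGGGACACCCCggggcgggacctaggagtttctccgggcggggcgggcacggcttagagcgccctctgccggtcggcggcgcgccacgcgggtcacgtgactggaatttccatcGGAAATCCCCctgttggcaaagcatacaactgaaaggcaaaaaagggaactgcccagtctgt
Nfkb2, chr19:46304487-46304786, plus strand: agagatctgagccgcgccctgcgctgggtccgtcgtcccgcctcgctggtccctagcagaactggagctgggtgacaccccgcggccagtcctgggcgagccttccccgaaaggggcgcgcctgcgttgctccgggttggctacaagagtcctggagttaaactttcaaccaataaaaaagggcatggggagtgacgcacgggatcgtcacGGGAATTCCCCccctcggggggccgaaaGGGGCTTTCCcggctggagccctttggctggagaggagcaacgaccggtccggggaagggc
Rel, chr11:23770920-23771219, minus strand: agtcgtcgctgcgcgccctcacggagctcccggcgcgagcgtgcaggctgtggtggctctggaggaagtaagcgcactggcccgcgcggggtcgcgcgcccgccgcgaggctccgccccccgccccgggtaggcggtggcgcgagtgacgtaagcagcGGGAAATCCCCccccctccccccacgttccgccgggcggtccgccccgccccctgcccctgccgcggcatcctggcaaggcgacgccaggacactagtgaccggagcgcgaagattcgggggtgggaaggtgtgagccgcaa

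The match in Nfkbia, which encodes IκBα, began 29 bases before the start site. In Tnfaip3, which encodes the ubiquitin-editing enzyme A20, matches began 125 and 12 bases before the start. Nfkb2 held overlapping matches whose first base lay 39 bases before the start and a further match 11 bases before it, and overlapping matches in Rel began 92 bases before the start. The windows of Rela and Nfkbib held no match to the consensus. The letters TATAAA, searched on the strand of the gene, occurred in 1 of the 10 windows, against 8.32% of all windows. This was the window of Tnfaip3 shown above, where they began 225 bases before the start. A match describes the letters of the window and not a site bound in these cells.

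The design limited what the arrays could separate. Both replicates of a condition shared an array and all 4 arrays of a cell type shared a slide, so that an effect of the array cannot be told apart from the condition, nor one of the slide from the cell type. For the B cells, the labels of the scanner files and of the authors' table of normalised values conflicted. In that table the samples labelled KLA 1 h and DMSO 12 h of the B cells held the values of each other's scanner channels, with r of at least 0.976 across probes against the exchanged channel and at most -0.738 against their own, while the other 20 of the 24 columns were closest to their own channel. The scanner labels were used, and B cell results are also given with these labels exchanged. Between 57.4% and 65.0% of probes were well above background per channel, and all 10 members were among the 17347 genes tested. In the B cells, 7 of 7 B cell markers were well above background, with a summed log2 signal of 18.1 to 18.4, against 6 or 7 of 9 macrophage markers with a sum of 11.5 to 12.7. All 9 macrophage markers were well above background in EPM and BMDM, with sums of 18.6 to 19.2. In EPM, 5 to 7 of the 7 B cell markers were well above background with sums of 15.9 to 16. The adaptor gene Blnk alone gave 15.97 in the untreated sample. Pax5 was not well above background there but passed after 12 h of KLA, at 6.36. In BMDM, 5 or 6 of these markers passed with sums of 14.4 to 14.8, and all 5 neutrophil markers were well above background, with sums of 13.3 to 14.4. The neutrophil sum moved with KLA in both macrophages, in BMDM from 13.8 to 14.4 at 1 h and from 13.3 to 14.3 at 12 h. In EPM, where 3 of the 5 markers passed, it moved from 9.86 to 10.8 and from 9.86 to 10.3. A sum follows its brightest genes, and the median of the list moved less. It went from 6.72 to 6.75 and from 6.7 to 6.96 in EPM, and from 9.18 to 9.63 and from 8.97 to 9.01 in BMDM. The part of cells of other types in the results was not tested.

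**Figure D1:**
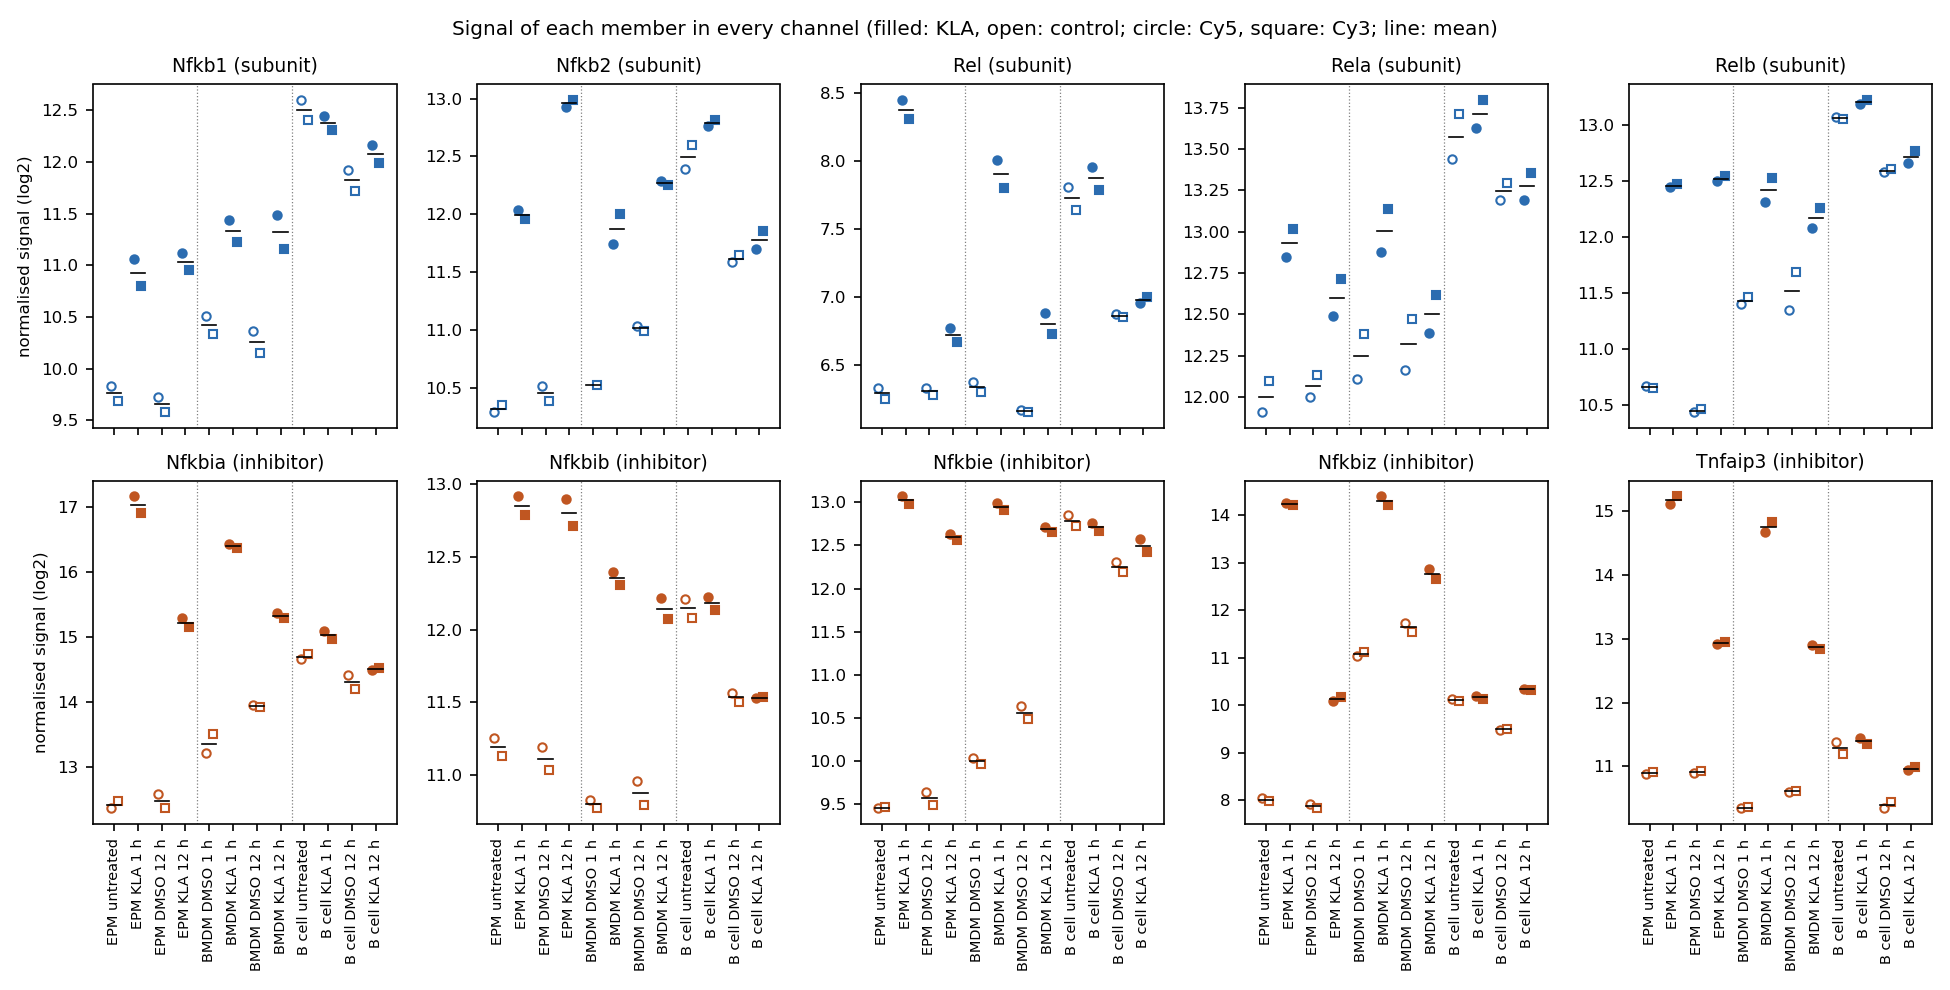
Normalised log2 signal of each member (vertical axis, a scale of its own per panel) in every channel of the 12 conditions (horizontal axis). Filled points are KLA and open points controls, circles are Cy5, squares Cy3 and lines means, and the Cy5 value of Nfkb2 in BMDM DMSO 1 h is missing. In EPM, Nfkbiz rose from 8.01 to 14.24 at 1 h and lay at 10.13 at 12 h, and B cell controls lay above EPM controls for every member at the early time.

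KLA raised the mRNA of all 10 members in EPM at 1 h. Across all genes, 29.1% of 17345 were called at this time (limma, adjusted p under 0.05), 9.39% as higher and 19.7% as lower. The median log2 change was 4.28 over the 5 inhibitors and 1.68 over the 5 subunits, beside -0.05 over all genes tested, and the changes of the 2 groups overlapped. In whole cell populations, a change in the number of cells of a type and a change in the RNA of each cell cannot be told apart.

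The largest change among the inhibitors was that of Nfkbiz, which encodes IκBζ, a nuclear protein of the IκB family that can also activate a subset of NF-κB targets. Its log2 signal was 8.03 and 7.99 in the untreated EPM and 14.26 and 14.22 after 1 h of KLA, a 75.2-fold increase (log2 change 6.23, SE 0.08, limma adjusted p = 2.83e-20, n = 2). Nfkbia, whose product IκBα is the classical cytoplasmic inhibitor, had a signal of 12.37 and 12.47 without KLA and of 17.16 and 16.91 with it. This was a 24.5-fold increase (log2 change 4.62, SE 0.10, limma adjusted p = 1.13e-16). Both replicates with KLA lay far above both controls for these genes. The groups did not overlap for any of the 10 members, where they did not for 63.3% of the 17343 genes with all 4 values. Tnfaip3 rose 19.4-fold, from 10.88 and 10.92 to 15.11 and 15.24, with a log2 change of 4.28 (SE 0.07). Nfkbie, which encodes the cytoplasmic inhibitor IκBε, rose 11.9-fold from 9.45 and 9.46 to 13.07 and 12.98. Nfkbib, which encodes IκBβ, changed least among the inhibitors, 3.15-fold, from 11.26 and 11.13 to 12.92 and 12.79, which lay within the range of the subunits.

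Among the subunits on the probes used, Rel, which encodes c-Rel, showed the largest change at 1 h. Its signal was 6.33 and 6.25 in untreated EPM and 8.45 and 8.31 with KLA, a 4.25-fold increase (log2 change 2.09, SE 0.08, limma adjusted p = 4.71e-13). The Rel signal was close to background, where the added offset compresses changes, and with the processed signals of the scanner software its log2 change was 3.99. Relb, whose product acts mainly in the non-canonical pathway, rose 3.48-fold from 10.68 and 10.65 to 12.45 and 12.48, and Nfkb2, which encodes the p100 precursor of p52, rose 3.20-fold from 10.29 and 10.35 to 12.04 and 11.96. Nfkb1, which encodes the p105 precursor of p50, rose 2.25-fold on its brightest probe, from 9.84 and 9.69 to 11.06 and 10.81. The 3 other probes of Nfkb1 gave log2 changes of 2.79, 2.94 and 2.51, larger than that of Rel. Rela, which encodes the transactivating subunit p65, changed least, 1.91-fold, from 11.91 and 12.10 to 12.85 and 13.02 (log2 change 0.93, SE 0.13, limma adjusted p = 2.87e-05). A further fit took 1 mean per array, with 1 KLA array per condition and the controls of a cell type pooled. The share of all genes called in it is not given here, so its counts of members cannot be set beside that share. When the mean of each array was taken as 1 sample and the 2 controls of EPM as replicates, 5 of the 10 members were called, which were Relb, Nfkbia, Nfkbie, Nfkbiz and Tnfaip3.

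**Figure D2:**
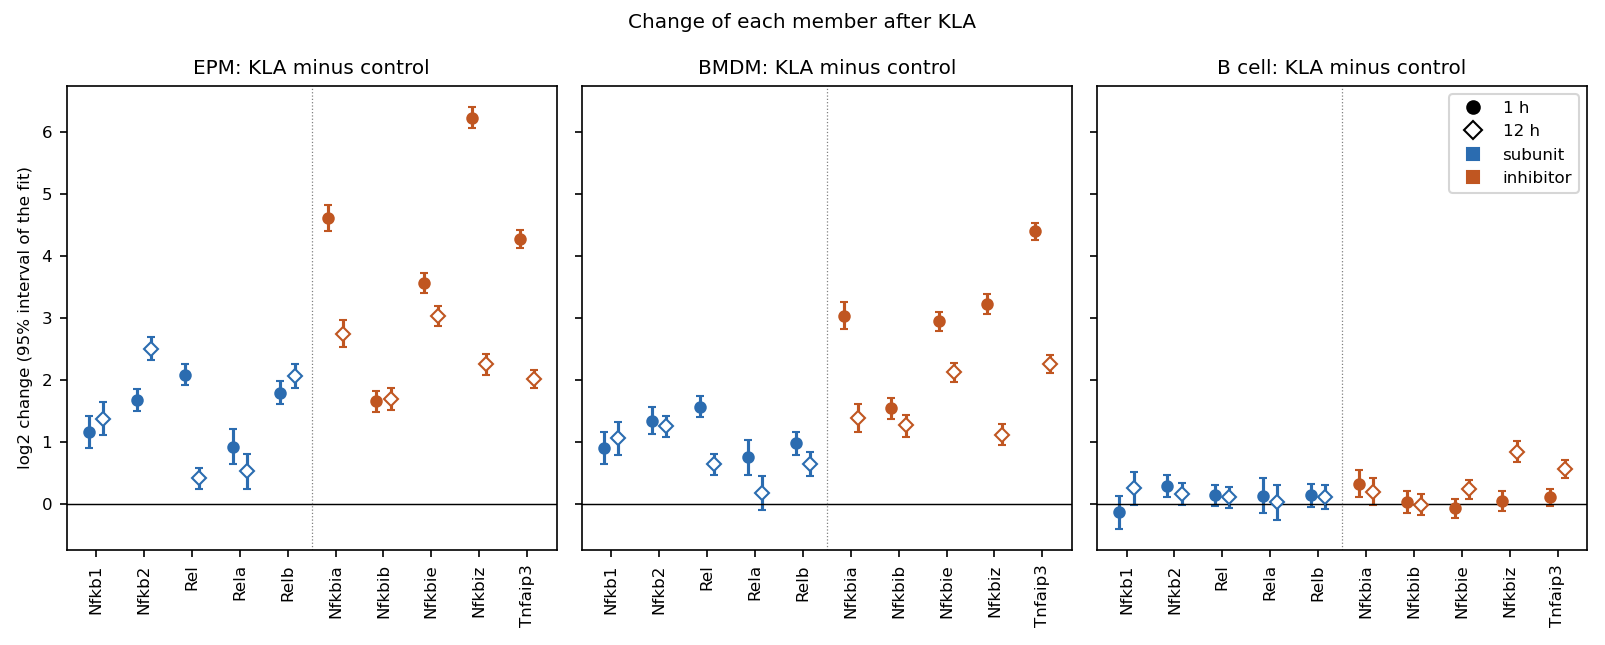
Log2 change of each member after KLA against the control of the same time (vertical axis) in EPM, BMDM and B cells (panels), with 95% intervals of the limma fit, n = 2 per group except 1 for Nfkb2 in the 1 h control of BMDM. Filled circles are 1 h and open diamonds 12 h, subunits are blue and inhibitors orange. The inhibitors other than Nfkbib lie above the subunits at 1 h in both macrophages, where they reach 6.23 in EPM and 4.40 in BMDM, and the B cell changes stay between -0.13 and 0.85.

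After 12 h of KLA, all 10 members were still above the DMSO control in EPM, where 53.9% of 17340 genes were called, 19.6% as higher and 34.3% as lower. The median log2 change was 2.26 over the inhibitors and 1.38 over the subunits, beside -0.06 over all genes. The changes of the 2 groups overlapped, from 1.69 to 3.03 and from 0.42 to 2.51. Nfkbie had become the inhibitor with the largest change, 8.17-fold, with 9.64 and 9.49 in the DMSO controls and 12.63 and 12.56 with KLA. Nfkbia remained 6.73-fold higher, at 15.29 and 15.15 against 12.57 and 12.36. Nfkbiz was 4.78-fold higher, at 10.09 and 10.17 against 7.92 and 7.83, and thus well below its signal at 1 h. Nfkb2 stood apart among the subunits, since its 5.69-fold increase, from 10.51 and 10.39 to 12.93 and 12.99, was larger than at 1 h. Relb was 4.2-fold and Nfkb1 2.61-fold higher. Rel was 1.33-fold higher, and 1 of its 2 DMSO controls was well above background. With array means as samples, 8 of the 10 members kept the call, all but Rel and Rela.

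The test of the response at 12 h minus that at 1 h in EPM called 6 of 10 members, where 43.7% of 17338 genes were called, 19.4% as larger and 24.3% as smaller. The log2 response of Nfkbiz fell by 3.98 (SE 0.11, limma adjusted p = 2.53e-15), that of Tnfaip3 by 2.26, that of Nfkbia by 1.87, that of Rel by 1.67 and that of Nfkbie by 0.54. The response of Nfkb2 was 0.83 higher at 12 h (SE 0.12, limma adjusted p = 2.04e-05). Nfkbib did not pass, with a difference of 0.04 (SE 0.12) and a 95% interval from -0.21 to 0.28. For Relb the difference was 0.27 and for Rela -0.40, with adjusted p of 0.0906 and 0.0999, and both passed in the fit with the dye as a block, where it was 0.0233 and 0.000131, as did Nfkb1 on its brightest probe (0.21, adjusted p = 0.0175). With array means as samples, 3 of the 6 calls held, those of Nfkbia, Nfkbiz and Tnfaip3.

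Nfkb1 was measured by 4 probes, and they gave different time courses. The brightest probe, of the transcript M57999 and printed 10 times on each array, lies at chr3:135522133-135522194 (mm8, minus strand). The other 3, of the transcripts AK048506, BC050841 and AK036827, lie 26.5, 27.4 and 33.5 kb from it toward higher coordinates, which on the minus strand is toward the start of the gene. In EPM at 1 h these gave log2 changes of 2.79, 2.94 and 2.51, against 1.17 for the brightest probe. At 12 h they gave 1.28, 1.43 and 0.65, against 1.38. On the brightest probe the response did not pass the test of a difference between the times (0.21, SE 0.18, adjusted p = 0.376 in a fit over probes), whereas on the others it fell by 1.51, 1.5 and 1.86, with adjusted p of 1.16e-07, 5e-08 and 2.72e-09. BMDM showed the same split, with differences of -1.59, -1.43 and -1.67 on these 3 probes against 0.16 on the brightest. The response at 1 h was larger in EPM than in BMDM on these probes, by 0.60, 0.71 and 0.45 in the order above, and the brightest did not pass (0.26, adjusted p = 0.454, and 0.0159 with the dye as a block). The probe of BC050841 may serve as an example, with 8.11 and 8.10 in untreated EPM, 11.04 and 11.04 after 1 h of KLA, 7.45 and 7.69 in the DMSO control at 12 h and 9.03 and 8.98 after 12 h of KLA. The DMSO control at 12 h was itself below the untreated EPM on this probe, by 0.53, and on that of AK048506, by 0.40. The 2 probes of Rela, by contrast, gave 0.93 and 0.92 in EPM at 1 h.

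**Figure D3:**
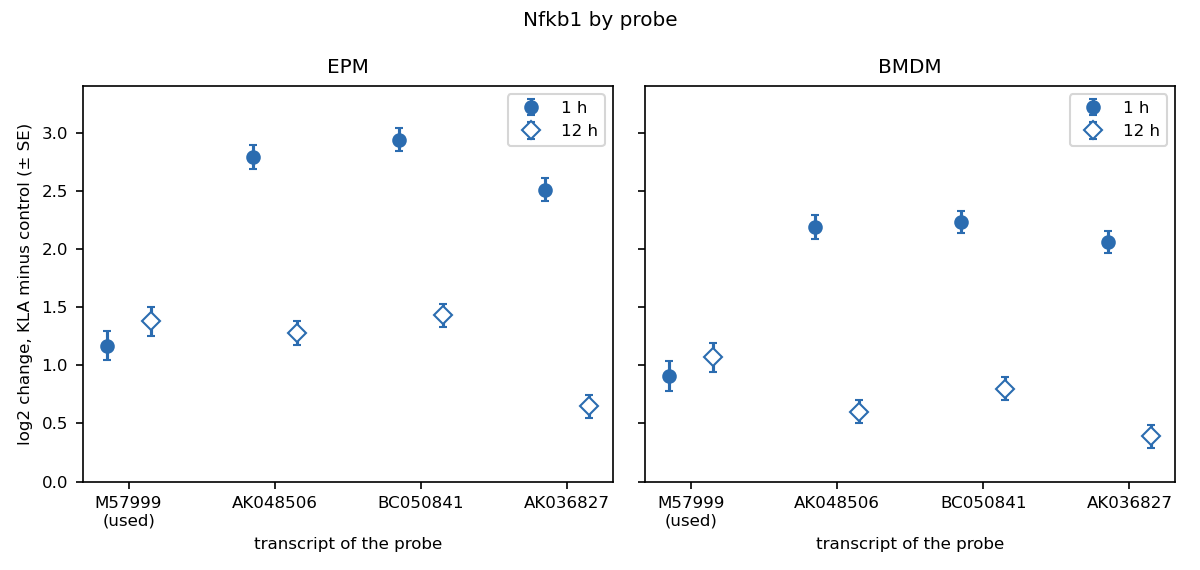
Log2 change of Nfkb1 after KLA (vertical axis, ± SE of the limma fit over probes) by probe, named by its transcript (horizontal axis), in EPM and BMDM, n = 2 per group. Filled circles are 1 h and open diamonds 12 h. The brightest probe, of M57999, gives 1.17 at 1 h and 1.38 at 12 h in EPM, whereas the others give 2.51 to 2.94 at 1 h and 0.65 to 1.43 at 12 h.

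In BMDM, KLA also raised all 10 members at 1 h, where 28.6% of 17343 genes were called, 11.0% as higher and 17.6% as lower. The median log2 change was 3.04 over the inhibitors and 0.99 over the subunits, beside -0.03 over all genes. The subunit median was 1.35 with the mean of all probes of a gene and 1.76 in the authors' table, where the inhibitors had 3.04 and 3.1. On the probes used, Tnfaip3 changed most, 21.1-fold, from 10.34 and 10.37 in the DMSO controls to 14.68 and 14.83 with KLA (log2 change 4.40, SE 0.07, limma adjusted p = 6.36e-19). Nfkbiz rose 9.34-fold from 11.04 and 11.13 to 14.40 and 14.21, Nfkbia 8.25-fold from 13.21 and 13.50 to 16.44 and 16.37, and Nfkbie 7.72-fold from 10.03 and 9.97 to 12.99 and 12.91. As in EPM, the change of Nfkbib, 2.93-fold, was the smallest of an inhibitor. It was close to that of Rel, which changed most among the subunits on the probes used, at 2.96-fold. The 3 other probes of Nfkb1 gave larger changes, 4.56-fold, 4.69-fold and 4.17-fold. Nfkb2 rose 2.55-fold, to 11.74 and 12.00 from 10.52, its control resting on 1 replicate because the spot of the other was an outlier. Relb rose 1.98-fold, Nfkb1 1.88-fold and Rela 1.69-fold. With array means as samples, 2 of the 10 calls held, those of Nfkbia and Tnfaip3.

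At 12 h in BMDM, 9 of 10 members were higher with KLA, where 65.0% of 17342 genes were called, 28.6% as higher and 36.3% as lower. The inhibitors had a median log2 change of 1.39 and the subunits of 0.65, beside -0.03 over all genes. The changes of the 2 groups overlapped, from 1.12 to 2.26 and from 0.18 to 1.26. The subunit median was 1.05 with an offset of 16 and 1.09 with processed signals, where the inhibitors had 1.39 and 1.52. Tnfaip3 was 4.79-fold higher, at 12.90 and 12.84 against 10.60 and 10.62, and Nfkbie 4.37-fold, at 12.72 and 12.65 against 10.63 and 10.49. Rela was the member that did not pass, at 12.39 and 12.62 against 12.16 and 12.47 (log2 change 0.18, SE 0.13, limma adjusted p = 0.239), and its groups overlapped. It passed with the dye as a block (adjusted p = 0.00454), in the authors' table (0.42, adjusted p = 0.0074) and on its second probe (0.38, adjusted p = 0.0136). Rel was not well above background in either DMSO control at 12 h and was at least 1.56-fold higher with KLA, with mean signals of 6.80 and 6.16 (limma adjusted p = 1.2e-06). When arrays were averaged to 1 sample, the calls that held were those of the 5 inhibitors.

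The responses at 12 h minus those at 1 h in BMDM were smaller for 8 of 10 members, where 54.4% of 17338 genes were called, 24.5% as larger and 29.9% as smaller. The log2 response of Tnfaip3 fell by 2.14, that of Nfkbiz by 2.10, that of Nfkbia by 1.66, that of Rel by 0.92 and that of Nfkbie by 0.82. Smaller differences were called for Rela (-0.58), Relb (-0.33) and Nfkbib (-0.28), with adjusted p of 0.0148, 0.0323 and 0.0473. All 3 lost the call, leaving 5, without the Cy5 replicate of BMDM DMSO 1 h or at a threshold of 0.01, and each also lost it without some other replicate. With array means as samples the pooled controls again cancelled, which left the signal with KLA at 12 h minus that at 1 h. It was -1.1 for Rel, and it does not test the difference of the responses. For Nfkb2, with 1 replicate in the early control, the difference was -0.09 (SE 0.13, 95% interval from -0.37 to 0.19), whereas in EPM its response had grown.

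EPM and BMDM differed in how far some members responded. At 1 h the response was larger in EPM for 5 of 10 members, where 9.56% of 17341 genes were called, 4.07% as larger in EPM and 5.49% as smaller. For Nfkbiz the log2 difference between the responses was 3.01 (SE 0.11, limma adjusted p = 6.62e-12), or 8.05-fold, and for Nfkbia 1.57 (SE 0.15, adjusted p = 5.36e-07). For Relb it was 0.81, for Nfkbie 0.62 and for Rel 0.52, and the last was not called with the processed signals (0.76, adjusted p = 0.0758). Tnfaip3 gave a difference of -0.12 (SE 0.10), with a 95% interval from -0.32 to 0.08. The difference for Nfkbiz arose beside unequal controls, since its signal after 1 h of KLA was 14.26 and 14.22 in EPM and 14.40 and 14.21 in BMDM, so that the replicates of the 2 cell types interleaved.

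At 12 h the response was larger in EPM for 6 of 10 members and smaller for Tnfaip3, where 47.8% of 17335 genes were called, 23.2% as larger in EPM and 24.6% as smaller. The log2 difference was 1.42 for Relb (SE 0.13), 1.36 for Nfkbia, 1.25 for Nfkb2, 1.14 for Nfkbiz, 0.90 for Nfkbie and 0.43 for Nfkbib. Relb and Nfkb2, whose products form a dimer of the non-canonical pathway, were the 2 subunits called. With the dye as a block all 10 members were called, 8 as larger and 2 as smaller, with Nfkb1 (0.32, adjusted p = 0.000821), Rela (0.35, adjusted p = 0.000492) and Rel (-0.23, adjusted p = 0.0231) added. The share of all genes called in that fit is not given here, so this count cannot be set beside it. Nfkb1 was also called on its probes of AK048506 and BC050841, at 0.68 and 0.63. The value for Tnfaip3, -0.24 (adjusted p = 0.0423), lost its call in most alternatives, the removal of any of the 8 replicates among them, and turned to 0.12 without normalization between arrays. The signal of Nfkbiz at 12 h was 10.09 and 10.17 in EPM and 12.87 and 12.66 in BMDM with KLA. With array means as samples, limma called none of the differences between the macrophages, and 3 members at 1 h and 2 at 12 h had an unadjusted p under 0.05.

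The early controls of the 2 macrophages differed in 7 of 10 members, where 57.8% of 17344 genes were called, 28.5% as higher in EPM and 29.3% as lower. Nfkbiz was lower in EPM than in BMDM by 3.07 on the log2 scale, at 8.03 and 7.99 against 11.04 and 11.13 (SE 0.08, limma adjusted p = 2.25e-16). Nfkbia was lower by 0.94, Relb by 0.77, Nfkb1 by 0.66 and Nfkbie by 0.54, whereas Tnfaip3 was higher in EPM by 0.54 and Nfkbib by 0.40. Nfkb2, Rel and Rela gave differences of -0.21, -0.05 and -0.25 that did not pass, although Rela did with the dye as a block (adjusted p = 0.000396). The comparison sets untreated EPM against BMDM that received DMSO, on different slides. With array means as samples, which pooled the early and 12 h controls of a cell type, 3 of the 7 calls held.

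The signal was higher in untreated B cells than in untreated EPM for all 10 members, where 77.2% of 17345 genes were called, 38.5% as higher and 38.6% as lower. Nfkbie was 10.1-fold higher, at 12.85 and 12.72 against 9.45 and 9.46. Nfkb1 was 6.69-fold higher, at 12.60 and 12.41 against 9.84 and 9.69, Relb 5.27-fold, Nfkbia 4.85-fold and Nfkb2 4.52-fold. The smallest difference was that of Tnfaip3, 1.31-fold, at 11.38 and 11.20 against 10.88 and 10.92. It lost its call without normalization between arrays and fell to -0.06 with array means as samples, in which the untreated and DMSO controls of a cell type were pooled. On its brightest probe, the signal of Nfkb1 in untreated B cells thus exceeded that of EPM after KLA (11.06 and 10.81 at 1 h). The probes of AK048506 and BC050841 gave the same order at 1 h. That of AK036827 did not, at 8.95 and 8.72 in untreated B cells against 8.96 and 8.98. The signal of Nfkbia in untreated B cells, at 14.65 and 14.74, lay between untreated EPM and EPM after 1 h of KLA. Against BMDM that received DMSO for 1 h, 9 of 10 members were higher in B cells and Nfkbiz was lower by 0.97 on the log2 scale, where 76.6% of 17342 genes were called, 37.5% as higher and 39.1% as lower.

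The B cells answered KLA with little change in these genes under the scanner labels. At 1 h, 1 of 10 members was called, where 5.17% of 17345 genes were called, 2.72% as higher and 2.45% as lower. This was Nfkb2, 1.23-fold higher, at 12.77 and 12.82 against 12.39 and 12.60 (log2 change 0.30, SE 0.08, limma adjusted p = 0.0481). The call was lost in several alternatives, among them without the Cy5 replicate of the untreated B cells and without either replicate of B cell KLA 1 h, and with the dye as a block Nfkbia was called as well (adjusted p = 0.018). Nfkbia was at 15.09 and 14.96 against 14.65 and 14.74, with a log2 change of 0.33 (adjusted p = 0.0758). None of the 5 inhibitors was called by limma, and 1 of them had an unadjusted p under 0.05.

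At 12 h, 2 of 10 members were higher with KLA in B cells, where 5.29% of 17346 genes were called, 2.81% as higher and 2.48% as lower. Nfkbiz rose 1.80-fold, from 9.47 and 9.5 in the DMSO controls to 10.35 and 10.33 (log2 change 0.85, SE 0.08, limma adjusted p = 5.49e-07), and Tnfaip3 rose 1.48-fold, from 10.35 and 10.44 to 10.95 and 10.99 (log2 change 0.57, SE 0.07, adjusted p = 1.28e-05). Both are inhibitors. On the probes used, limma called none of the 5 subunits, and none had an unadjusted p under 0.05. Nfkb1 was called on its probe of AK048506 (0.41, adjusted p = 0.0218) and with the mean of its probes (0.29, adjusted p = 0.00568). With the dye as a block 4 members were called, the others being Nfkb1 (0.26, adjusted p = 0.00157) and Nfkbie (0.24, adjusted p = 0.00202). The share of all genes called in that fit is not given here. With array means as samples, the untreated and DMSO controls were pooled. The log2 change was then 0.54 for Nfkbiz and 0.12 for Tnfaip3. These controls differed in 9 of the 10 members under the scanner labels, so that pooling cannot test the change against DMSO alone.

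With the 2 B cell labels exchanged, these results turned. KLA at 1 h then lowered 9 of 10 members, where 47.4% of genes were called, with log2 changes between -0.89 for Tnfaip3 and -0.39 for Nfkbia among those called. KLA at 12 h lowered 8 of 10, where 49.1% were called, with -1.01 for Nfkb2 and -0.43 for Tnfaip3, and Nfkbiz gave 0.17 (adjusted p = 0.0853). Under the scanner labels the same contrast falls on the controls, and DMSO for 12 h was lower than untreated for 9 of 10 members, where 47.4% of 17344 genes were called, 25.0% as higher and 22.4% as lower. Tnfaip3 was lower there by 0.89, Nfkb2 by 0.88 and Rel by 0.86, while Rela, at -0.33, had an adjusted p of 0.0506, and of 1.63e-05 with the dye as a block. Between these controls the summed signal of the macrophage markers went from 11.5 to 12.7 and that of the T cell markers from 10.5 to 11.6. A sum follows its brightest genes, and the medians of these lists were 7.42 and 7.39 for macrophages and 6.34 and 6.35 for T cells. For the erythroid markers the sum went from 13.4 to 12.3 and the median from 9.72 to 8.6. The part of these cell types in the result was not tested. The sign of the B cell change differed between the labelings for 8 of the 10 members at 1 h and for 8 at 12 h, so that its direction depends on which labels are right.

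The DMSO controls of the macrophages were compared in the same way. In EPM, none of the 10 members was called between DMSO for 12 h and untreated by limma, where 19.1% of 17342 genes were called, 10.8% as higher and 8.31% as lower, and 1 had an unadjusted p under 0.05. With the dye as a block Relb was called lower (-0.21, adjusted p = 0.0255). In BMDM, where DMSO for 12 h was set against DMSO for 1 h, 5 of 10 members were higher and 23.2% of 17342 genes were called, 13.2% as higher and 9.99% as lower. These were Nfkbia (0.58), Nfkbiz (0.56), Nfkbie (0.56), Nfkb2 (0.49, its early control resting on 1 replicate) and Tnfaip3 (0.26), 4 of them inhibitors. With the dye as a block Nfkb1 (-0.16, adjusted p = 0.0173) and Rel (-0.18, adjusted p = 0.0211) were also called, as lower. For these 4 inhibitors, the smaller response at 12 h in BMDM was measured against a control that had itself risen, from 13.21 and 13.50 to 13.95 and 13.92 in the case of Nfkbia. The signal of Nfkbia with KLA was also lower at 12 h, at 15.37 and 15.28, than at 1 h, at 16.44 and 16.37.

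**Figure D4:**
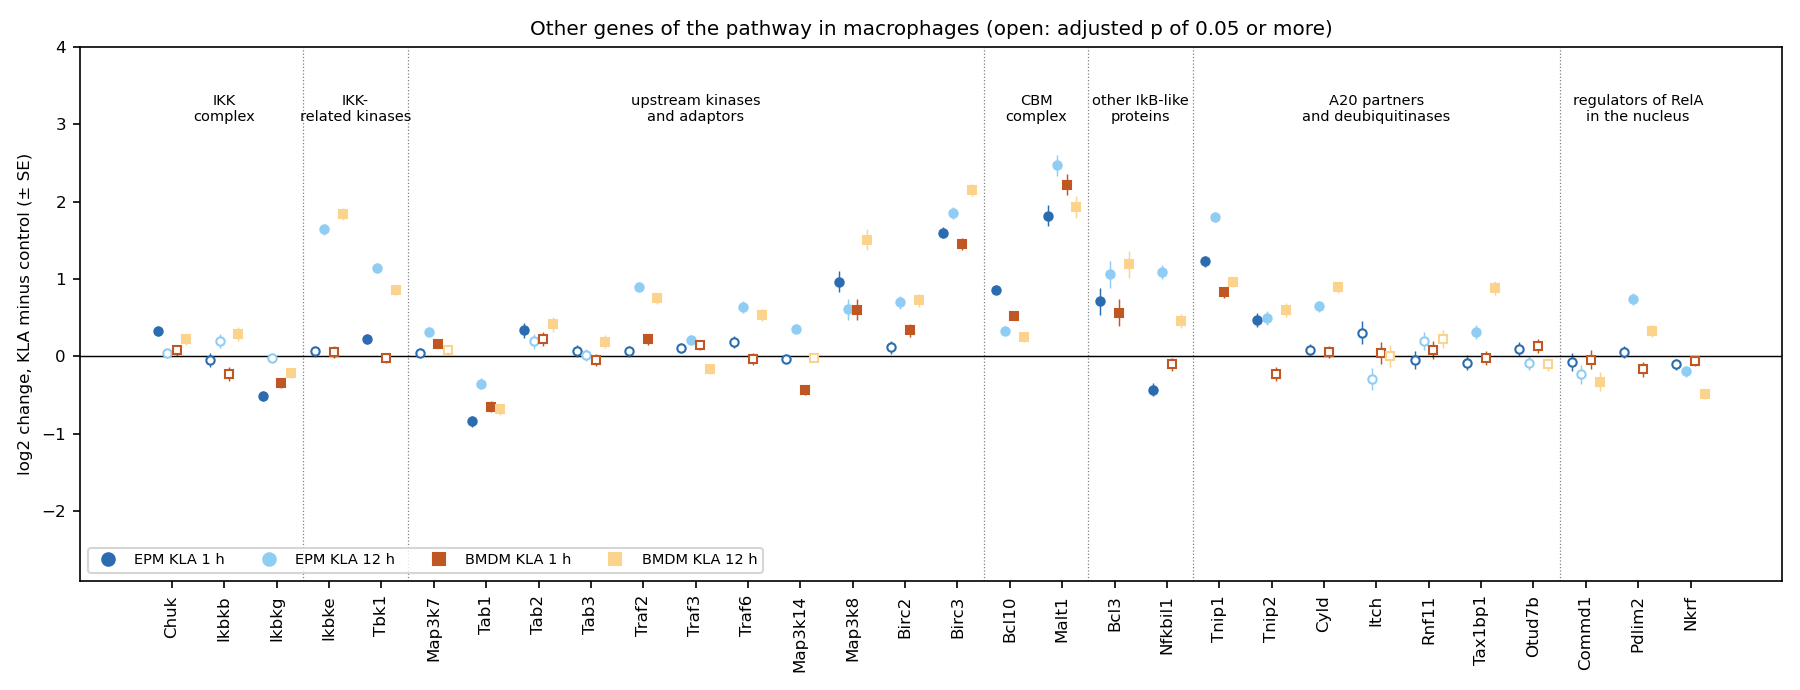
Log2 change after KLA against the control of the same time (vertical axis, ± SE of the limma fit, n = 2 per group) for tested genes of the pathway lists (horizontal axis) in EPM (circles) and BMDM (squares) at 1 h (dark) and 12 h (light). Filled points had an adjusted p under 0.05. Malt1 and Birc3 are high in all 4 comparisons, and Ikbke and Tbk1 at 12 h.

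Other genes of the pathway moved less uniformly than the members. Of 34 listed genes, 31 were on the array and tested. In EPM, 10 were higher and 3 lower with KLA at 1 h, and 19 were higher and 3 lower at 12 h, with median log2 changes of 0.08 and 0.33. In BMDM, 9 were higher and 3 lower at 1 h, and 20 were higher and 6 lower at 12 h, with medians of 0.06 and 0.32. These shares may be read beside the shares of all genes called given above.

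The 3 genes of the IKK complex, whose kinases phosphorylate IκB, had log2 changes between -0.51 and 0.33 in the macrophages. In EPM at 1 h the catalytic subunit gene Chuk rose 1.26-fold, whereas Ikbkg, which encodes the regulatory subunit NEMO, fell by 0.51 on the log2 scale, and in EPM at 12 h none of the 3 was called. In BMDM, Ikbkg fell by 0.34 at 1 h and by 0.22 at 12 h, whereas Chuk and Ikbkb, the genes of the catalytic subunits, rose by 0.22 and 0.29 at 12 h. The kinases related to IKK, which act toward interferon genes, were higher at 12 h, and Tbk1 had risen 1.17-fold at 1 h in EPM. At 12 h Ikbke was 3.11-fold higher in EPM (log2 change 1.64, SE 0.07) and 3.57-fold in BMDM (1.84, SE 0.07), and Tbk1 was 2.21-fold and 1.81-fold higher, whereas at 1 h Ikbke gave 0.06 in both macrophages.

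Among the upstream kinases and adaptors, 3 of 11 were higher in EPM at 1 h and 8 at 12 h, and 5 and 7 were higher in BMDM. Birc3, which encodes the ubiquitin ligase cIAP2, rose 3.04-fold at 1 h and 3.60-fold at 12 h in EPM, and 2.72-fold and 4.45-fold in BMDM. The gene of the adaptor TAB1, listed on the array as Map3k7ip1, was lower in each of these comparisons, by 0.84 and 0.36 in EPM and by 0.65 and 0.68 in BMDM. Map3k14, which encodes the kinase NIK of the non-canonical pathway, was lower by 0.44 in BMDM at 1 h and 1.28-fold higher in EPM at 12 h, and gave a log2 change of -0.02 in BMDM at 12 h.

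Of the CBM complex, which links antigen receptors and some innate receptors to IKK, Malt1, which encodes a protease, rose 3.52-fold at 1 h and 5.56-fold at 12 h in EPM, and 4.64-fold and 3.81-fold in BMDM. Bcl10, which encodes an adaptor of the complex, rose 1.81-fold and 1.26-fold in EPM and 1.44-fold and 1.19-fold in BMDM.

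Of the partners of A20 and the deubiquitinases, 2 of 7 were higher in EPM at 1 h and 4 at 12 h, and 1 and 4 in BMDM, and none was lower. Tnip1, which encodes the A20-binding protein ABIN1, rose 2.34-fold and 3.47-fold in EPM and 1.78-fold at 1 h in BMDM. Of the other IκB-like proteins, Bcl3, a nuclear partner of p50 and p52, rose 1.64-fold and 2.08-fold in EPM and 1.47-fold and 2.28-fold in BMDM at 1 h and 12 h. Nfkbil1 was lower by 0.43 in EPM at 1 h and higher at 12 h by 1.09. Of the 3 regulators of RelA in the nucleus, none was called at 1 h in either macrophage, and Nkrf, which encodes a repressor, was lower at 12 h by 0.19 in EPM and by 0.49 in BMDM. Pdlim2, which encodes a ubiquitin ligase for p65, was higher at 12 h by 0.74 in EPM and by 0.32 in BMDM, and Commd1 was lower by 0.33 in BMDM.

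In B cells under the scanner labels, 1 of the 31 genes was higher and 1 lower at 1 h, and 1 was higher at 12 h. Otud7b, which encodes a deubiquitinase, was 1.26-fold higher at 1 h. Birc3 was lower by 0.31 at 1 h and higher by 0.29 at 12 h. With the labels exchanged, 6 of the 31 genes were higher and 15 lower at 1 h, and 5 higher and 14 lower at 12 h. Birc3 then gave -1.24 at 1 h and -0.64 at 12 h, so that its direction at 12 h turned, and Otud7b gave 0.19 at 1 h (adjusted p = 0.0909).

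The patterns of the members over the 12 conditions, with condition means centred within each cell type, were compared with those of 17239 genes without missing values. The points share slides and normalization, and the correlations are given as a description. The genes most like Nfkb1 on its brightest probe were Nfkbib (r = 0.983), Marcksl1 (0.982), Birc3 (0.979), Ube2f (0.976) and Tank (0.975). Those most like Nfkbia were Ccl4 (0.984), Cdc42ep2 (0.982), Cxcl2 (0.979), Icosl (0.978) and Zc3h12c (0.977). Ccl4 and Cxcl2 encode chemokines, and their log2 changes in EPM were 5.96 and 6.78 at 1 h and 2.79 and 4.07 at 12 h. Among the members, Nfkbia and Nfkbie correlated with r = 0.962 and Rel and Relb with r = 0.749, the lowest value among the 9 members compared. Nfkb2 was left out because of its missing value.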

How the data were processed

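Groups were taken from the labels, and 2 biological replicates shared an array. The authors deposited scanner intensity values of every spot, from Agilent Feature Extraction 9.5.3.1, and a table of normalised intensity values on a linear scale for 38516 probes, the normalization of which is not given in the sources used here. The files of both channels were the same, so that Cy5 and Cy3 values came from the red and green columns. Normexp (offset 50) corrected the background on all spots, after which control spots were dropped, loess was run inside each array and Aquantile across arrays, and log2 values per channel were taken. Outlier spots were left out and repeated spots averaged. Each gene was read from its brightest probe by mean, and it entered the test if any condition had this probe well above background in Cy5 and Cy3. The test was limma 3.58.1 in R 4.3.3, with a coefficient for each condition (12 residual degrees of freedom), p-values adjusted by Benjamini-Hochberg across the genes tested, and a threshold of 0.05, and it was tested on simulated data. Since replicates share an array, p-values measure the spread within arrays. Changes are on the log2 scale after the offset, which understates those of dim genes. For a bound, each channel of the dim group was raised to the lowest signal that its array had well above background (5.44 to 6.16) where it lay under it. The number of arrays limits the precision. Cy5 minus Cy3 differences of one array correlated with those of each other array (66 pairs, r from 0.27 to 0.63), so the dye paired the replicates, and a fit with the dye as a replicate block was made. Shares of all genes called are given for the test above and for the exchanged B cell labels. They are not given for the other alternatives, whose counts of members therefore stand without them. The named genes were the 10 members, in each KLA comparison the pathway genes with the 3 largest rises and falls past the threshold, of which some are printed, and the 5 genes most like Nfkb1 and Nfkbia. Values of 1 pathway gene and 1 marker gene are not reported here. Other pathway genes were added as examples after their values were seen. Marker lists of T cells and erythroid cells were also summed (9.10 to 11.6 and 8.46 to 13.5 on the log2 scale). Members and lists were chosen with earlier results of these data known.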

Additional observations from a re-analysis of the deposited data

Results flagged for a closer look

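The responses to KLA of several members differed between groups of samples by the test of the difference itself, with values on the log2 scale. Between EPM and BMDM at 1 h the response was larger in EPM by 0.52 for Rel, 0.81 for Relb, 1.57 for Nfkbia, 0.62 for Nfkbie and 3.01 for Nfkbiz. At 12 h it was larger in EPM by 1.25 for Nfkb2, 1.42 for Relb, 1.36 for Nfkbia, 0.43 for Nfkbib, 0.90 for Nfkbie and 1.14 for Nfkbiz, and for Tnfaip3 the value was -0.24. Between 12 h and 1 h in EPM the response differed by 0.83 for Nfkb2, -1.67 for Rel, -1.87 for Nfkbia, -0.54 for Nfkbie, -3.98 for Nfkbiz and -2.26 for Tnfaip3. Between 12 h and 1 h in BMDM it differed by -0.92 for Rel, -0.58 for Rela, -0.33 for Relb, -1.66 for Nfkbia, -0.28 for Nfkbib, -0.82 for Nfkbie, -2.10 for Nfkbiz and -2.14 for Tnfaip3. The slide goes with the cell type and the array with the condition in all of these differences.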

How the results depend on the processing

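The 40 changes with KLA in macrophages kept direction and side of the threshold in every alternative but 4. Array means as samples lost 19 of them, and Rela at 12 h in BMDM was called in the authors' table, with the dye as a replicate block and on its second probe. Leaving out each replicate changed none of 159 values. With array means, 5 members were called in EPM at 1 h, 2 in BMDM at 1 h, 5 in BMDM at 12 h, 0 for both EPM minus BMDM differences, 3 for 12 h minus 1 h in EPM, 0 for it in BMDM, 3 between macrophage controls and 0 in B cells at either time. The change of 12 h minus 1 h in BMDM had 5 members at a threshold of 0.01, and 5 to 7 without 1 replicate. The EPM controls had 1 member with the authors' table, the mean of probes, the replicate block and a fit on a single cell type.

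In B cells at 1 h, 0 members were called with an offset of 16, processed signals, quantile normalization, centring, a filter over all channels, a fit on a single cell type or a threshold of 0.01, 2 with the mean of probes and with the replicate block, and 0 to 1 without 1 replicate. At 12 h, 4 were called with the mean of probes and with the replicate block. In the authors' table, 9 members were lower at 1 h, 8 at 12 h and 0 differed between controls, and with exchanged labels these were 9, 8 and 1. Values that turned in the authors' table at 1 h were Nfkb2 -0.82, Rel -0.95, Relb -0.38, Nfkbia -0.53, Nfkbib -0.54, Nfkbiz -0.55 and Tnfaip3 -0.80, at 12 h Nfkb1 -0.36, Nfkb2 -0.93, Rel -0.94, Rela -0.44, Relb -0.45, Nfkbia -0.71 and Tnfaip3 -0.37, and between controls Nfkb2 0.25, Rel 0.0743, Relb 0.13, Nfkbia 0.36, Nfkbib 0.0419, Nfkbiz 0.026 and Tnfaip3 0.13. With exchanged labels they were at 1 h Nfkb2 -0.88, Rel -0.86, Relb -0.47, Nfkbia -0.39, Nfkbib -0.61, Nfkbiz -0.62 and Tnfaip3 -0.89, at 12 h Nfkb2 -1.01, Rel -0.89, Rela -0.44, Relb -0.49, Nfkbia -0.52, Nfkbie -0.22 and Tnfaip3 -0.43, and between controls Nfkb2 0.30, Rel 0.15, Relb 0.15, Nfkbia 0.33, Nfkbib 0.0339, Nfkbiz 0.0553 and Tnfaip3 0.11. The exchange of the columns accounts for these by construction.

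The difference of Tnfaip3 between EPM and BMDM at 12 h was 0.12 without normalization between arrays, the cause of which was not tested. That between the controls of B cells and EPM was -0.0628 with array means, where the untreated and DMSO controls of a cell type were pooled. Nfkb1 at 12 h minus 1 h was -1.55 in the authors' table and -1.16 with the mean of probes in EPM, and -1.42 and -1.13 in BMDM, where other probes entered. The other probes, an alternative chosen after seeing the data, gave -1.86, -1.51 and -1.5 in EPM and -1.67, -1.59 and -1.43 in BMDM. The signal of Rel lay near background, and its KLA changes in macrophages with processed signals were 3.99 and 1.54 in EPM and 3.23 and 2.32 in BMDM at 1 h and 12 h.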
